A study of Mus musculus with 9 samples.

Results

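The genes described here are nuclear genes for subunits of the mitochondrial respiratory chain, for ATP synthase and for the mitochondrial ribosome. They were chosen by symbol alone: names starting with Nduf, Uqcr or Atp5, Cox followed by 4 to 8, Sdha to Sdhd, Cycs, Cyc1, and Mrpl or Mrps followed by a number. The rule found 85 of the 22442 genes in the deposited count tables. The deposited tables named 11718 of those 22442 genes, and RefSeq lists 180 protein-coding mouse genes whose symbols match, so many family members could not be recognised among the unnamed rows. Roles were assigned by symbol alone, so a gene may carry the name of a complex to which its protein does not belong. By name, the 85 comprised 15 complex I subunits, 4 complex I assembly factors, 3 genes of complex II and 3 of complex III. The others were 7 of complex IV, 4 of ATP synthase, 30 large and 19 small mitochondrial ribosomal proteins. Sdhaf3, an assembly factor of complex II, entered because its symbol begins with Sdha. Of the 85, 79 were named by the table of part lengths. The remaining 6, among them Ndufs1, Sdha, Atp5c1, Mrpl38 and Mrps30, were named through the authors' table of isoform counts, so having a name there already required counts in the isoform libraries.

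The respiratory chain passes electrons from NADH and succinate through complexes I to IV to oxygen and pumps protons across the inner mitochondrial membrane, and ATP synthase uses that gradient to make ATP. A small set of its subunits is encoded in mitochondrial DNA and made by the mitochondrial ribosome. All other subunits, and all proteins of that ribosome, are encoded in the nucleus, so their mRNAs are spliced, exported and translated in the cytoplasm before import of the protein. Chtop is a nuclear RNA-binding protein that works with the export factors of the TREX complex.

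RNA crosslinked to Chtop was measured by iCLIP in N2a cells, a mouse neuroblastoma line. Each Flp-In rtTA line carried a doxycycline-inducible FLAG-tagged Chtop cDNA, either with or without exon 5. Cells received 2 µg/mL doxycycline for 24 hours and ultraviolet light of 0.15 J/cm2 at 254 nm, and complexes were recovered with an antibody against FLAG. There were 3 libraries with exon 5, 3 libraries without exon 5 and 3 size-matched inputs, which are gel-sized RNA from 2% of the lysate taken before the antibody step. Replicates were described as independent and handled on separate days. The protein was overexpressed from a cDNA, the cells kept their own Chtop gene, and the labels give no age or genotype beyond the line. The inputs came from 3 different lines: input 1 from the line without exon 5, input 2 from the line with exon 5 and input 3 from a line expressing FLAG-GFP.

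Library totals were 624062 to 1844970 counts for the isoforms and 75504 to 173342 for the inputs. Levels are CPM, counts relative to the library's total and scaled by TMM, a method that sets libraries against each other through their less variable genes. A count of 3, used here as the floor of detection, corresponded to 2.10 to 5.51 CPM in the isoform libraries and to 16.3 to 21.1 CPM in the inputs, covering counting error only. Across genes, log CPM correlated at 0.661 to 0.794 between libraries of 1 isoform and at 0.267 to 0.35 between inputs. Chtop itself had 148 to 404 counts in the isoform libraries and 76, 10 and 0 in the inputs. Among 14 listed neuroblastoma and sympathetic neuron markers 11 were in the tables and 10 passed the count filter. Their summed level was 768 to 2070 CPM in the inputs, 1630 to 1990 with exon 5 and 1200 to 1310 without. Of 12 listed markers of other cell types 3 were in the tables, with summed levels of 0 to 70.4 CPM in the inputs and 1.43 to 25.9 CPM in the isoform libraries.

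The member genes were thinly covered. Between 44 and 66 of the 85 had a count in each isoform library, against 25, 38 and 10 in inputs 1, 2 and 3. The filter on low counts left 36 members among 8342 genes for the test of gene totals. It kept 2 of 15 complex I subunits and 13 of 19 small mitochondrial ribosomal proteins. The members were short: their median CDS was 603 bases, against 1185 over all genes, and 884 among the 36 tested members, against 1698.5 over all tested genes. The 49 untested members had a median CDS of 458 bases. Of those 49, 30 had counts in isoform libraries and 0 in every input, 13 had counts in both kinds of library, and Ndufb3 had counts in an input alone. The other 5, Cox4i2, Cox7a1, Cox8c, Mrps18c and Ndufaf8, were at 0 in all 9 libraries. Cox7a1 and Cox8c encode tissue-restricted subunits known from muscle and testis.

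Summed over all 85 genes, the level was 1375 ± 278.8 CPM with exon 5, 1628 ± 170.7 CPM without exon 5 and 2178 ± 522.1 CPM in the inputs (SD, n = 3 each). The highest sum without exon 5 was 1746 CPM, and the lowest input, input 3, had 1613 CPM, so the groups overlapped. This overlap depended on the scaling by TMM. With library size alone the sums were 1152 ± 212.5, 1348 ± 97.11 and 3124 ± 763.1 CPM in turn (SD, n = 3 each). Every input, at 2411 CPM or more, was then above every isoform library, at 1442 CPM or less. Without Atp5a1 and Atp5b, the sums scaled by TMM were 1275 ± 298.1, 1450 ± 171.1 and 1431 ± 360.1 CPM (SD, n = 3 each). With library size alone they were 1067 ± 221.5, 1199 ± 72.81 and 2054 ± 535.6 CPM (SD, n = 3 each), again with every input above every isoform library. Isoform sums are RNA recovered with FLAG-tagged Chtop, and input sums are RNA of the lysate. For the lysate RNA, fewer cells that express a gene and less RNA per cell cannot be told apart in bulk libraries. By role, 2 sums had every input above every isoform library. ATP synthase was at 175.0 ± 33.0 CPM with exon 5 and 275.9 ± 56.41 without, against 786.2 ± 183.0 in the inputs. Complex IV was at 62.07 ± 45.03 and 87.24 ± 69.31 CPM, against 294.9 ± 89.69 in the inputs (SD, n = 3 each). The other 6 sums, scaled by TMM, overlapped between isoforms and inputs.

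**Figure D1:**
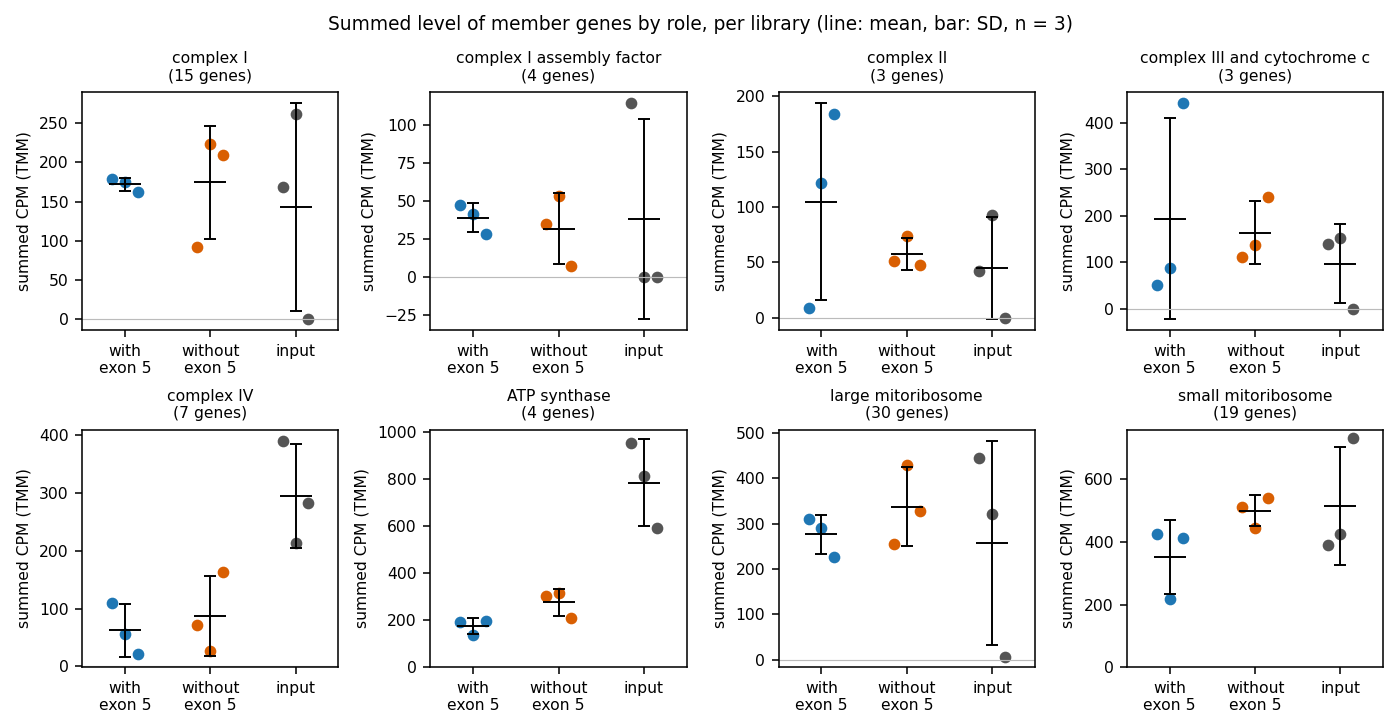
Summed CPM (scaled by TMM) of the member genes of each role in each library; points are libraries with exon 5 (blue), without exon 5 (orange) and input (grey), lines are means and bars SD (n = 3). ATP synthase runs from 591.8 to 955.0 CPM in the inputs and from 137.0 to 315.1 CPM in the isoform libraries, while the complex I input sum falls to 0 in input 3.

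Which of these mRNAs were recovered with Chtop more or less than from lysate was asked by comparing each isoform with input. Gene totals were tested with edgeR's quasi-likelihood test and Benjamini-Hochberg adjustment over all 8342 genes, at a threshold of 0.05. With exon 5, 1 of 36 members passed, Atp5b, which was lower; over all tested genes 9.17% passed, 8.31% higher and 0.863% lower. Without exon 5, 1 of 36 passed, Mrps6, which was higher; over all tested genes 8.7% passed, 8.12% higher and 0.587% lower. Mrps6, at 0 in all inputs, passed the filter on low counts through the isoform libraries alone, so it could only come out higher. Of all tested genes, 14.6% were at 0 in every input. At an unadjusted p under 0.05, 9 of 36 members passed in each comparison, 6 higher and 3 lower with exon 5, and 5 higher and 4 lower without; the share over all genes was 29.2% and 28.5%. The comparisons share the 3 inputs and are not independent of each other.

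The median log2 fold change of the 36 members was 0.04 with exon 5 and 0.67 without, and that of all tested genes was 1.03 in both. With genes at 0 in every input set to their bound, these were -0.01 and 0.34 for members, and 0.7 and 0.72 for all genes. This order depended on the inputs, the filter and the scaling. Without input 1 the members' medians were 1.66 and 2.03, above the 1.33 and 1.38 of all genes. Without input 2 or input 3 the members stayed below all genes in both comparisons. With no filter on low counts the members stayed below with exon 5, but were at 1.38 against 1.32 without. With library size alone the members' medians were -0.48 and 0.03, against 0.39 and 0.37 over all genes. With an offset for the trend on gene length they were -0.5 and -0.4, against -0.56 and -0.59, so that the members then lay slightly above all genes. The 30 tested members named by the length table had medians of -0.42 and 0.19, and the 6 named through the table of isoform counts had 2.08 and 1.63. Counts of these genes often sat in 1 library. A single input held over 50% of the summed input CPM for 31 of the 33 members with input counts, and this share was 91.8% of genes over all tested.

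**Figure D2:**
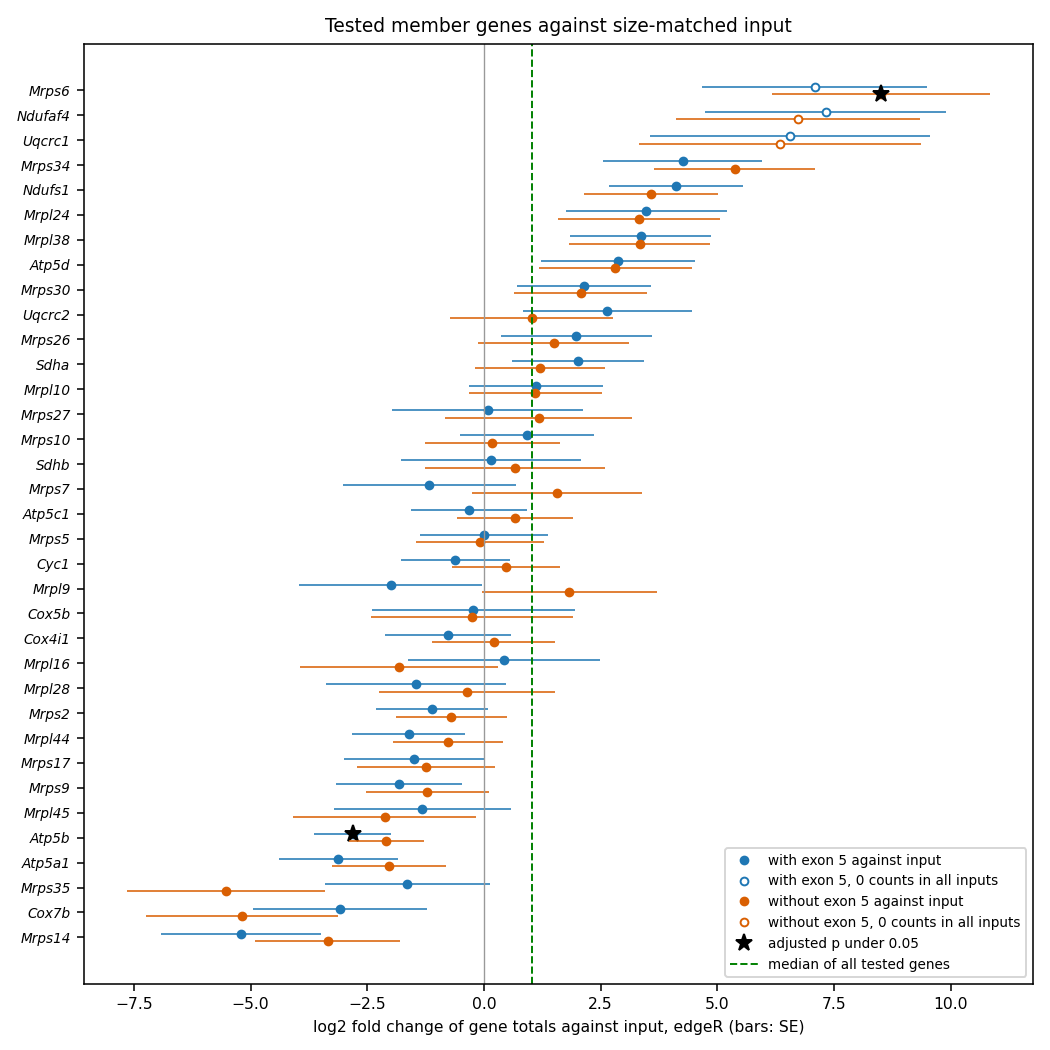
Log2 fold change of gene totals against input for 35 of the 36 tested members (edgeR; bars are SE), with exon 5 in blue and without in orange; open points had 0 counts in all inputs, stars passed the adjusted threshold of 0.05, and the green dashed line is the median of all tested genes, 1.03. Fitted values of open points are no measure of size; Atp5b with exon 5 and Mrps6 without exon 5 carry the stars.

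Complex I, the entry point for electrons from NADH, had 2 tested subunits, and 0 passed in either comparison. Ndufs1, a core subunit of the peripheral arm (ENSMUSG00000025968.16; CDS of 2192 bases) had 51, 33 and 97 counts with exon 5, 28, 30 and 84 without, and 0, 2 and 0 in the inputs. Every isoform library was above every input, and Ndufs1 passed the filter on low counts through the isoform libraries alone. Pooled counts of a group were set against its pooled library size scaled by TMM. The ratio to the inputs was 18.0 with exon 5 (exact 95% interval 4.92 to 150.0) and 12.4 without (3.36 to 103.0). Such intervals cover counting error and leave out the spread between libraries. In edgeR's test the adjusted p was 0.0786 and 0.116. Ndufa7, an accessory subunit, did not pass the count filter, with 9, 1 and 0 counts with exon 5, 0, 0 and 22 without, and 14, 14 and 0 in the inputs.

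Among complex I assembly factors, Ndufaf4 had 33, 23 and 14 counts with exon 5 and 9, 34 and 7 without, and was at 0 in all inputs. It thus passed the filter on low counts through the isoform libraries alone and could only come out higher. Against the floor of 3 counts per input library it was at least 1.68-fold higher with exon 5 and at least 1.11-fold higher without (edgeR adjusted p = 0.0828 and 0.111). The bound without exon 5 came from library 2, which held 65.1% of the group's CPM: without it the mean was 10.7 CPM, under the floor of 18.5 CPM. Ndufaf5, with 19 counts in input 1 and none in the other inputs, and Ndufaf7, a protein methyltransferase at 0 in the inputs and 0 to 10 counts in isoform libraries, were not tested.

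Complex II oxidises succinate and is made from nuclear genes alone. Its flavoprotein gene Sdha had 6, 43 and 135 counts with exon 5, 20, 42 and 35 without, and 7, 1 and 0 in the inputs. Library 3 held 64.37% of its CPM with exon 5, and log2 fold changes were 2.02 and 1.2 (SE 1.41 and 1.39; edgeR adjusted p = 0.37 and 0.622). Sdhb, the iron-sulfur subunit, had 0, 0 and 46 counts with exon 5, 8, 21 and 33 without, and 0, 7 and 0 in the inputs. Sdhaf3 was not tested; it had 0, 42 and 16 counts with exon 5, none in the 3 libraries without exon 5, and 9 in input 2, so its counts came from 3 libraries in all.

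Complex III hands electrons to cytochrome c. Its cytochrome c1 gene Cyc1 was counted in every isoform library, with 36, 22 and 75 counts with exon 5 and 46, 94 and 183 without, against 15, 26 and 0 in the inputs. The level was 51.0 ± 19.4, 107.7 ± 21.88 and 77.25 ± 71.7 CPM in turn (SD, n = 3 each), and the inputs overlapped both isoforms. Uqcrc2, a core protein, had the largest single count among the members: 383 in library 3 with exon 5, of which 360 lay in the 3' UTR, against 0 and 10 in the other libraries of that group. That library held 96.17% of the group's CPM. The counts without exon 5 were 7, 9 and 138, and those of the inputs 8, 2 and 0. Uqcrc1, the other core protein, had 0, 29 and 14 counts with exon 5, 8, 14 and 22 without, and 0 in all inputs; its means of 18.16 and 15.52 CPM were under the input floor of 18.5 CPM, so no fold is given.

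Complex IV reduces oxygen to water. Cox4i1, a nuclear-encoded subunit around its catalytic core, had 23, 37 and 17 counts with exon 5, 19, 9 and 219 without, and 15, 15 and 0 in the inputs. The third library without exon 5 held 77.1% of that group's CPM, and the groups overlapped. Cox7b had 24, 0 and 5 counts with exon 5, 0, 0 and 11 without, and 50, 6 and 0 in the inputs; its log2 fold change without exon 5 was -5.18 (SE 2.06, edgeR adjusted p = 0.115). Cox5a, not tested, had 0 to 6 counts in the isoform libraries and 0, 9 and 40 in the inputs, with 38 of the last in the CDS. The high input was a different library in each case: input 1 for Cox7b and input 3 for Cox5a.

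ATP synthase held the member with the most evenly covered inputs. Atp5b encodes the catalytic beta subunit of the F1 head (ENSMUSG00000025393.12; chr10:128083307-128090388 in GRCm38; CDS of 1587 bases). It had 80, 44 and 48 counts with exon 5, 55, 152 and 122 without, and 83, 91 and 80 in the much smaller inputs. In CPM this was 519.3 ± 38.37 in the inputs, 74.0 ± 36.0 with exon 5 and 121.7 ± 50.0 in libraries lacking it (SD, n = 3 each). All 6 isoform libraries lay below all 3 inputs. The log2 fold change was -2.81 with exon 5 (SE 0.82, edgeR adjusted p = 0.0442) and -2.09 without (SE 0.80, adjusted p = 0.101). The call with exon 5 was lost on leaving out any 1 isoform library, at adjusted p from 0.0925 to 0.161, and kept on leaving out any 1 input, with log2 fold changes of -3.23 to -2.47 over these 9 refits.

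Atp5a1, the alpha subunit that forms the same ring with beta, had 19, 20 and 24 counts with exon 5, 26, 71 and 51 without, and 63, 56 and 0 in the inputs. It was high in inputs 1 and 2 and absent from input 3, so the groups overlapped. Log2 fold changes were -3.12 (SE 1.28, edgeR adjusted p = 0.121) and -2.03 (SE 1.22, adjusted p = 0.294). Without input 3, Atp5a1 passed the threshold as lower in both comparisons. Atp5c1, the gamma subunit of the central stalk, had 22, 11 and 32 counts with exon 5, 47, 41 and 27 without, and 13, 2 and 1 in the inputs. Its log2 fold changes were -0.32 and 0.66. Atp5d, the delta subunit of the same stalk, had 3 counts in the inputs, all in input 3, and 4 to 106 in the isoform libraries. Its pooled ratio was 9.3 with exon 5 (exact 95% interval 3.12 to 45.6) and 8.25 without (2.77 to 40.5), the other direction from Atp5b and Atp5a1. The groups overlapped in both comparisons, and library 3 held 67.15% of the CPM with exon 5. Atp5d did not pass the test (edgeR adjusted p = 0.264 and 0.277).

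**Figure D3:**
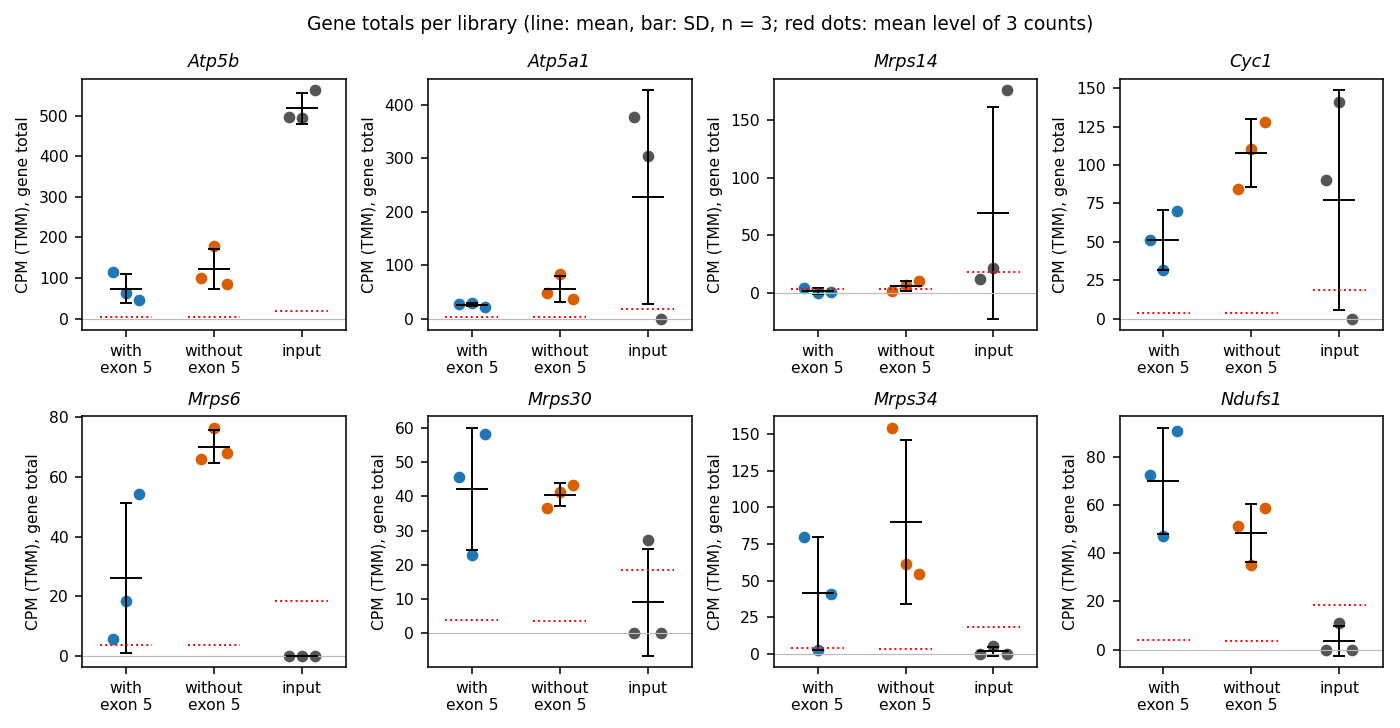
Gene totals in CPM (scaled by TMM) per library for 8 members, with group means (lines) and SD (bars, n = 3); red dotted lines mark the mean level of 3 counts in each group. Atp5b stands at 519.3 ± 38.37 CPM in the inputs above all isoform libraries, Mrps6 is at 0 in all inputs, and the input levels of Atp5a1, Mrps14 and Cyc1 spread over most of their panels.

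Of the large mitochondrial ribosomal proteins, 8 of 30 were tested and 0 passed in either comparison. Mrpl38 had 24, 25 and 58 counts with exon 5, 13, 51 and 56 without, and 0, 2 and 0 in the inputs, with every isoform library above every input. The ratio of pooled counts was 10.7 (exact 95% interval 2.88 to 89.1) and 10.5 (2.83 to 87.3), with edgeR adjusted p of 0.153 and 0.158. Mrpl24 had 10 to 26 counts in the isoform libraries and 1, 0 and 0 in the inputs, a pooled ratio of 12.0 with exon 5 (2.06 to 480.0) and 9.41 without (1.62 to 378.0). Both Mrpl38 and Mrpl24 passed the filter on low counts through the isoform libraries alone. Mrpl10 was even across the isoforms, at 36.77 ± 12.29 CPM with exon 5 and 36.31 ± 1.357 without (SD, n = 3 each), and its 9 input counts all came from input 2. Mrpl44 had 18, 31 and 48 counts with exon 5, 35, 52 and 114 without, and 32, 29 and 0 in the inputs, so the groups overlapped. Its log2 fold changes were -1.61 (SE 1.21, edgeR adjusted p = 0.409) and -0.77 (SE 1.18, adjusted p = 0.722). Mrpl45 had 19 counts in input 1 and none in the other inputs, and Mrpl16 had 7 in input 2 alone.

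Of the genes named for the small subunit, 13 of 19 were tested. Mrps6 (ENSMUSG00000039680.10; chr16:92058336-92112227 in GRCm38) had 4, 13 and 58 counts with exon 5, 36, 65 and 97 without, and 0 in all inputs. In CPM this was 70.15 ± 5.506 without exon 5, where the 3 libraries were close to each other, and a more uneven 26.18 ± 25.17 in those with it (SD, n = 3 each). Without exon 5 it was at least 3.79-fold above the floor of 3 counts per input library (edgeR adjusted p = 0.0411), and with exon 5 at least 1.42-fold (adjusted p = 0.0761). The latter bound came from library 3, which held 69.11% of the group's CPM: without it the mean was 12.1 CPM, under the floor of 18.5 CPM. Without exon 5 the bound was 3.62 to 3.9 on leaving out any 1 library of the group. The call without exon 5 was lost on leaving out any 1 isoform library, at adjusted p from 0.0658 to 0.114, and also with library size alone (0.0715) and with the length trend (0.0558).

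Mrps34 had 56, 2 and 44 counts with exon 5, 84, 52 and 78 without, and 0, 1 and 0 in the inputs. It passed the filter on low counts through the isoform libraries alone. The ratio of pooled counts was 20.3 (exact 95% interval 3.57 to 810.0) with exon 5 and 37.3 (6.62 to 1480.0) without, with edgeR adjusted p of 0.113 and 0.0622. Mrps30, a gene named for the small subunit whose protein is known to sit in the large one, had 32, 16 and 62 counts with exon 5, 20, 35 and 62 without, and 0, 5 and 0 in the inputs. Mrps14 lay below all inputs in every isoform library on the CPM scale: its counts were 3, 0 and 1 with exon 5, 1, 6 and 15 without, and 2, 4 and 25 in the inputs. Input 3 held 83.9% of its input CPM, and the log2 fold change with exon 5 was -5.20 (SE 1.72, edgeR adjusted p = 0.0671). Mrps14 passed the filter on low counts through the inputs alone, so it could only come out lower. Mrps9 and Mrps35 also had their input counts mainly in 1 library, 60 in input 3 and 31 in input 1. Mrps5 had 19, 37 and 55 counts with exon 5, 4, 22 and 127 without, and 19, 3 and 0 in the inputs, with log2 fold changes of 0.0 and -0.09.

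Counting members without overlap of the groups, 6 of 36 were higher in every library with exon 5 than in every input and 2 were lower; over all tested genes this share was 33.1% higher and 3.4% lower. Without exon 5, 8 were higher and 2 lower, against 35.9% and 3.43% over all tested genes. The higher members in both were Mrpl24, Mrpl38, Mrps6, Ndufaf4 and Ndufs1, and the lower were Atp5b and Mrps14. Those higher members passed the filter on low counts through the isoform libraries alone, and Mrps14 through the inputs alone. For these genes the filter thus favoured or fixed the direction. Some of these separations lay under the inputs' floor of 16.3 to 21.1 CPM. Mrps6 was under that floor in library 1 with exon 5 (4 counts). So were Ndufaf4 in library 3 without exon 5 (7 counts) and Mrpl24 in library 2 with exon 5 (10 counts). Mrps14 had 2 counts in input 1, fewer than the floor of 3.

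The deposited tables split each gene into its coding sequence (CDS) and its UTRs. Of the members' counts, 65.6 ± 5.57% lay in the CDS with exon 5, 70.4 ± 3.87% without and 79.3 ± 8.88% in the inputs (SD, n = 3 each). Over all genes these shares were 67.2 ± 1.21%, 67.7 ± 1.06% and 46.6 ± 1.12%. Every input had 70.9% or more of its member counts in the CDS, where all genes had at most 47.6%. Without Atp5a1 and Atp5b the members' input share was 71.3 ± 10.6% (SD, n = 3). By length, the CDS made up 42.2% of the members' summed parts and 54.1% of those of all genes. The difference in shares was not tested.

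**Figure D4:**
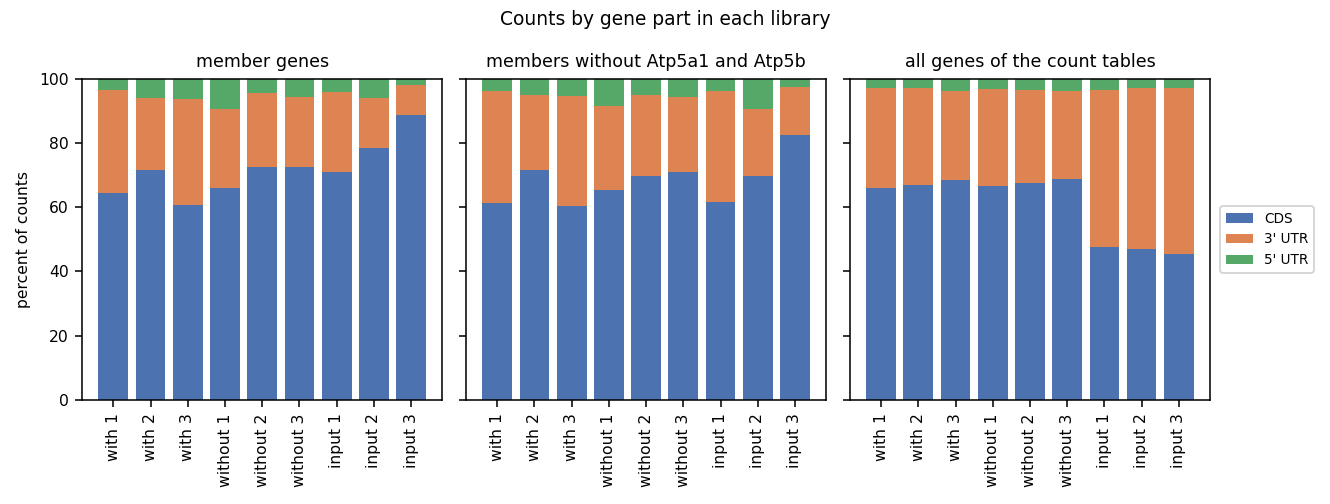
Percent of counts in the CDS (blue), 3' UTR (orange) and 5' UTR (green) in each of 9 libraries, for the member genes, for the members without Atp5a1 and Atp5b, and for all genes. In the inputs the CDS holds 70.9 to 88.6% of member counts and 45.4 to 47.6% of the counts of all genes; in the isoform libraries the ranges are 60.8 to 72.6% and 66.1 to 68.8%.

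CDS counts of both isoforms together, 6 libraries, were tested against the 3 inputs for 23 members, of which 1 was higher and 1 lower; over all 6376 genes tested 19% passed, 17.6% higher and 1.41% lower. Their median log2 fold change was -0.23, against 1.54 over all genes, and 16 of the 23 lay below the latter. With genes at 0 in every input at their bound, these medians were -0.33 and 0.74; 25.5% of all genes tested on the CDS were at 0 in every input. With library size alone the medians were -1.21 and 0.53, and with the length trend -0.86 and -0.52. Atp5b was the lower gene, with 80, 33 and 48 CDS counts with exon 5, 45, 139 and 114 without, and 83, 88 and 80 in the inputs. Its log2 fold change was -2.68 (SE 0.66, edgeR adjusted p = 0.0211), with adjusted p from 0.0525 to 0.0756 on leaving out any 1 isoform library. Its CDS held nearly all of its counts in every group. Mrps30 was the higher gene, with 20, 11 and 62 CDS counts with exon 5, 20, 35 and 55 without, and 0 in all inputs, where its 5 counts lay in the 3' UTR. Mrps30 thus passed the filter on low CDS counts through the isoform libraries alone and could only come out higher. It was at least 1.8-fold above the floor (edgeR adjusted p = 0.0373). That call was lost on leaving out any 1 isoform library, input 1 or input 3, at adjusted p from 0.0623 to 0.0864.

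Of the further members tested on the CDS, Atp5a1 had a log2 fold change of -3.23 (SE 1.10, edgeR adjusted p = 0.0542). Atp5d, at 0 CDS counts in the inputs, was at least 1.45-fold higher (adjusted p = 0.071), but was under the floor without library 3 with exon 5 (32.0 against 32.8 CPM). Sdha had 1 CDS count in the inputs and a pooled ratio of 22.6 (exact 95% interval 4.03 to 897.0), and Ndufs1 had 2 and a ratio of 11.5 (3.15 to 95.3), with edgeR adjusted p of 0.0757 and 0.0898. The log2 fold changes of Cyc1, Cox4i1, Uqcrc2, Mrps5 and Atp5c1 lay between -0.44 and -0.04.

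In the 3' UTR, 9 members were tested and 1 was higher, Mrps34; over all 4984 genes tested 15.9% passed, 14.5% higher and 1.34% lower. It had 44, 2 and 32 3' UTR counts with exon 5, 84, 42 and 24 without, and 0 in all inputs. Mrps34 thus passed the count filter through the isoform libraries alone and could only come out higher. The level was 171.4 ± 168.5 CPM over the 6 isoform libraries (SD), at least 4.46-fold above the floor (edgeR adjusted p = 0.0329), and at least 2.82-fold without library 1 without exon 5. The call was lost on leaving out any 1 isoform library except the second with exon 5, at adjusted p from 0.0521 to 0.067, and without input 1 (0.055). Of the 9 members, 5 were at 0 in every input, and the fitted median of 5.57 fell to 0.54 with these at their bound, against 0.93 over all genes. Mrpl10 had 7 to 37 3' UTR counts in each isoform library and 5 in input 2, with a log2 fold change of 2.08 (SE 1.47, adjusted p = 0.33). Among the others, Ndufaf4 was at least 1.45-fold and Mrpl38 at least 1.23-fold higher (adjusted p = 0.0755 and 0.112); without library 3 without exon 5, Mrpl38 was under the floor (37.6 against 38.5 CPM).

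The 5' UTR was described without a test. Of 79 members with a 5' UTR, 38 had 0 counts there in all 9 libraries, and the rest summed to 468 counts in the isoform libraries and 47 in the inputs. Mrps6 was the member with 5' UTR counts in all 6 isoform libraries: 3, 4 and 36 with exon 5 and 16, 18 and 31 without, with 0 in the inputs.

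Whether exon 5 altered the recovery of these mRNAs was asked by setting the isoforms against each other. None of the 36 members passed in gene totals, nor any of 23 in the CDS or 9 in the 3' UTR, and at an unadjusted p under 0.05 the count was also 0 in each (edgeR). Over all genes 0% passed in gene totals, the CDS and the 3' UTR, and 1.11% of genes reached an unadjusted p under 0.05 in gene totals. DESeq2 and limma-voom also called 0 members. Log2 fold changes, with over without exon 5, ran from -3.83 to 3.89 over the 36, with 18 above and 18 below 0 and a median of -0.09, against -0.03 over all genes. The precision was low: SEs were 0.77 to 2.08, and the median half-width of the 95% interval was 2.89, so these intervals leave room for large differences either way.

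By overlap, 0 members were higher in every library with exon 5 and 6 were lower; over all tested genes these shares were 6.49% and 7.43%. The 6 were Atp5a1, Cyc1, Mrpl44, Mrpl9, Mrps6 and Mrps7. For Cyc1 the log2 fold change was -1.07 (95% interval -3.51 to 1.37), and for Mrps6 -1.41 (-4.08 to 1.26). Mrpl9 had 0, 3 and 0 counts with exon 5 and 15, 13 and 33 without, with a log2 fold change of -3.83 (95% interval -7.88 to 0.23); its pooled counts, 3 against 61, gave a ratio of 0.0562 (exact 95% interval 0.0113 to 0.172, counting error only). Mrps7 had 6, 1 and 0 against 20, 13 and 23 counts, at -2.73 (-6.54 to 1.08). In the other direction Mrps35 was at 3.89 (-0.33 to 8.1), from 0, 10 and 67 counts with exon 5 against 0, 4 and 0 without. For Atp5b the interval was the narrowest of those named, -2.36 to 0.92 around -0.72. No edgeR adjusted p among these was below 1.0.

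**Figure D5:**
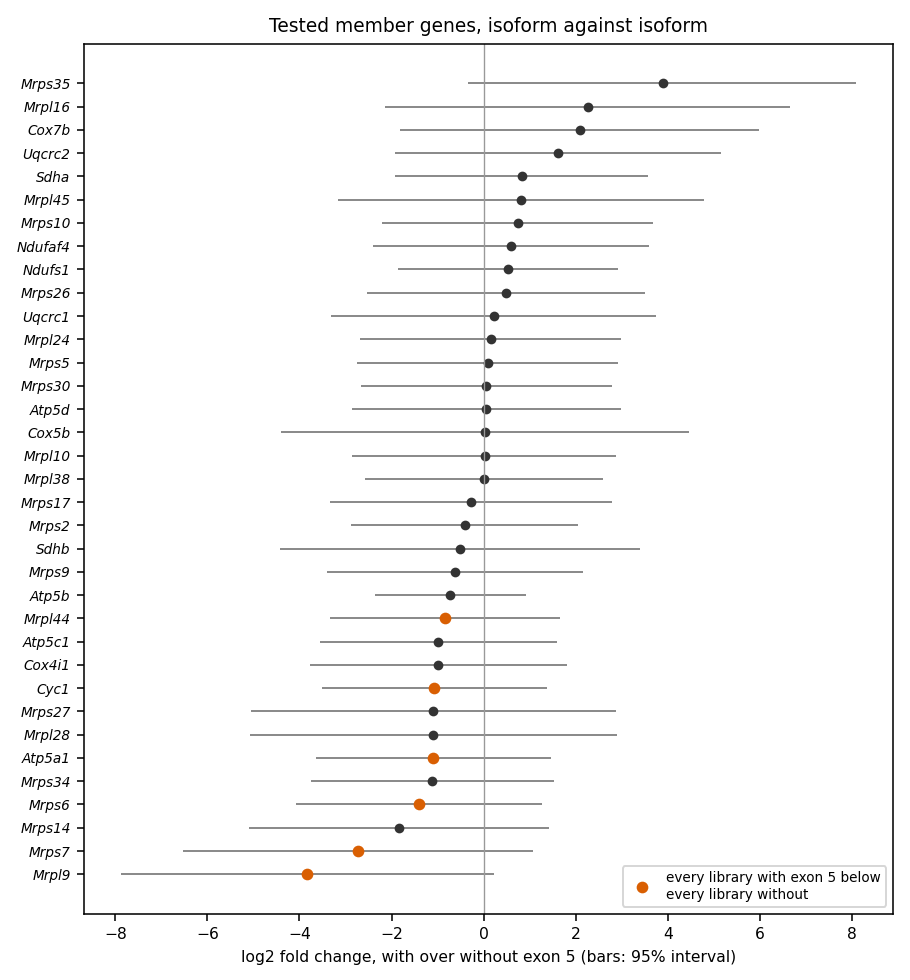
Log2 fold change of gene totals, with over without exon 5, for 35 of the 36 tested members (edgeR; bars are 95% intervals); orange points had every library with exon 5 below every library without. All intervals shown include 0, and values run from -3.83 for Mrpl9 to 3.89 for Mrps35.

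The authors' deposited table of 5320 genes held 17 of the members. Per its CDS classes, 10 were assigned to both isoforms, 4 to the isoform without exon 5 and 0 to the isoform with exon 5. The 4 in the authors' deposited table were Cyc1, Mrpl44, Mrpl9 and Mrps6, with log2 fold changes of -1.12, -1.13, -3.64 and -2.46. Over all genes of the authors' deposited table, 377 had that CDS class, 336 the class with exon 5 and 3819 both. In the 3' UTR, the authors' deposited table put Mrps26 with exon 5 (log2 fold change 1) and Mrpl10 and Mrps34 with both. These classes come from the same isoform libraries as the edgeR test above.

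Genes that work with the members were described from lists written out by pathway. Their counts stand against the shares over all tested genes given above: 8.31% higher and 0.863% lower with exon 5, and 8.12% higher and 0.587% lower without. Of listed assembly factors, 17 were in the tables, the member Sdhaf3 among them, and 4 were tested, and of protein import components 15 and 10; 0 passed in either comparison. Of 11 tested genes of the tricarboxylic acid cycle, 1 passed without exon 5: the malate dehydrogenase gene Mdh2, with 5, 0 and 3 counts against 40, 16 and 32 in the inputs, was lower (log2 fold change -5.66, SE 1.65, edgeR adjusted p = 0.0468). Mdh2 passed the filter on low counts only because of its inputs, so without exon 5 it could only come out lower. Of 17 tested genes for mitochondrial gene expression, Polrmt was higher and Lars2 lower in both comparisons. Polrmt, the mitochondrial RNA polymerase, had 18 to 123 counts in the isoform libraries and 0 in the inputs, so it could only come out higher. Lars2, a mitochondrial leucyl-tRNA synthetase, was at 1561 ± 138.9 and 2115 ± 202.6 CPM against 42140 ± 15450 CPM in the inputs (SD, n = 3 each). The inputs held 6686, 10735 and 3942 Lars2 counts, out of totals of 111982, 173342 and 75504. How these counts split by gene part was not described here. The 13 mitochondrially encoded respiratory genes listed had no row under those names.

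Of 12 tested nuclear regulators of respiratory genes, Gabpa, Esrra and Pprc1 were higher in both comparisons and 0 were lower. Over all tested genes, 8.31% were higher with exon 5 and 8.12% without. The list's median log2 fold changes were 1.9 and 1.03 (1.55 and 1.03 with genes at 0 in the inputs at their bound). Over all genes the median was 1.03 in both (0.7 and 0.72 at the bound). Gabpa, a subunit of the transcription factor GABP (also called NRF-2), had 22, 49 and 28 counts with exon 5, 22, 45 and 69 without and 0 in the inputs (edgeR adjusted p = 0.0474 and 0.0454). Esrra, the nuclear receptor ERR alpha, had 52, 293 and 87, then 63, 90 and 135, and 0 in the inputs (adjusted p = 0.0172 and 0.0259). Gabpa and Esrra thus passed the count filter through the isoform libraries alone and could only come out higher. Pprc1, a coactivator related to PGC-1, rose from 79.54 ± 45.06 CPM in the inputs to 477.6 ± 100.4 with exon 5 and 766 ± 120.6 without (SD, n = 3 each; adjusted p = 0.0328 and 0.0162). The difference between this list and the members was not tested.

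Genes for cytosolic ribosomal proteins, which are also short, were set beside the mitochondrial ones. The cytosolic class is known to be highly expressed, and the classes were not matched for level. Of 31 tested, 4 were lower with exon 5 (Rps25, Rps19, Rpl21 and Rpl31) and 1 without (Rpl36), and 0 were higher. Each of these lower genes passed the filter on low counts only because of its inputs, so the filter favoured this direction. Rps19, at 0 in every library with exon 5, and Rpl36, at 0 in every library without, could only come out lower there. Over all tested genes 0.863% and 0.587% were lower, and 8.31% and 8.12% higher. The list's median log2 fold changes were -2.94 and -2.49, against 1.03 over all genes in both. The tested members named for the mitochondrial ribosome had medians of -0.45 (large subunit) and 0.0 (small subunit) with exon 5, and 0.37 and 0.18 without. The difference between these classes was not tested.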

How the data were processed

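Each of 4 deposited tables held raw counts for 1 gene part or for the whole gene, and whole-gene counts equalled the sum of parts with 0 exceptions. The submitters' processing notes name mm10, TopHat2 and DESeq2. The counting tool, strand use, treatment of multi-mapping reads and any collapsing by the primers' random bases were not given in the sources used here. Many of these genes have processed pseudogenes, so reads shared with them may be miscounted. The log2 fold changes and other values (isoform classes, part lengths) of the authors' deposited tables were used as given, and 27 deposited columns of per-sample values were not used. The members and lists were chosen with earlier results of these data known.

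Gene totals, CDS and 3' UTR counts were tested in R 4.3.3 with edgeR 4.0.16 (quasi-likelihood F-test, robust, TMM, filterByExpr with a minimum count of 10 and total of 15), all 9 libraries in 1 fit, with Benjamini-Hochberg adjustment at 0.05. Part tables were scaled by their own column sums. SE is the log2 fold change over the root of F. The code was tested on simulated data. Alternatives used DESeq2 1.42.0 and limma 3.58.1. A fold against a group at 0 is a bound computed from 3 counts per library. Where 1 to 3 counts stood on a side, folds given as ratios pool the counts of a group, relative to library sizes scaled by TMM. These ratios have an exact 95% interval. Named genes were members past the threshold, the 3 most abundant per role, and the 5 highest and 5 lowest fold changes per comparison of totals; other genes named were chosen after their values were seen. Column names number inputs 1 and 2 the other way round from the titles, and the titles' numbers were used, matched by primer and cell line. Coordinates are RefSeq's for GRCm38.p6, matched by symbol. A further member is part of the counts, sums and medians but is not reported by name here.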

Additional observations from a re-analysis of the deposited data

Results flagged for a closer look

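Mrps6 had 108 counts in the 5' UTR, summed over the 6 isoform libraries, and 0 in the 3 inputs. That part was not tested on its own, but its counts are included in the gene totals of Mrps6. The floor of 3 counts in each input applies to this 0, and the difference in the 5' UTR was not tested.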

How the results depend on the processing

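Member counts past the threshold changed with most settings. With exon 5 the count of 1 became 2 with library size alone, 3 with the length trend, 4 with DESeq2, 0 with only the groups compared, and 0 to 6 on leaving out 1 library. Without exon 5 the count of 1 became 6 with DESeq2, 2 with limma-voom, 4 with no filter on low counts, 0 with only the groups compared, and 0 to 8 on leaving out 1 library. In the CDS the count of 2 became 4 with DESeq2, 1 with limma-voom, 5 with no filter and 0 to 5 on leaving out 1 library. In the 3' UTR the count of 1 became 2 with DESeq2, 0 with limma-voom, 4 with no filter and 0 to 3 on leaving out 1 library. Of the refits that left out 1 library, those without input 2 gave the highest counts. An equal count could hold another gene: with exon 5 and no filter it was Cox5a, and in the 3' UTR with the length trend it was Mrps2, lower. The cause was not tested. Between isoforms the count was 0 in all 18 settings for gene totals, the CDS and the 3' UTR.

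With only the groups compared in the fit, 6020 genes were tested with exon 5, and 17 were higher and 12 lower. The fit of all libraries tested 8342 genes and gave 693 and 72, and DESeq2 on those 8342 gave 1307 and 401. With the length trend the split was 94 higher and 253 lower, and without exon 5 it was 102 and 251.

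Atp5b passed in 8 of 18 settings in gene totals with exon 5 (log2 fold change -4.36 to -2.47) and in 10 of 18 in the CDS (-4.9 to -2.43). Mrps6 without exon 5 passed in 7, Mrps30 in the CDS in 4 and Mrps34 in the 3' UTR in 10 of 18. The direction of each held in all 18.

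By the titles' numbers, deviations of same-numbered libraries of different groups correlated at -0.0149 to 0.0365, and those of other pairs at -0.045 to 0.0365. By the column names' numbers these ranges were -0.0061 to 0.0365 and -0.045 to 0.0169, so the highest values were then between same-numbered libraries. All were small, and whether a number marks a shared day was not tested. The main fit took no pairs. With a replicate block the counts were 0 with exon 5, 0 without exon 5, 0 in the CDS and 1 in the 3' UTR, and a block by the column names' numbers, chosen after seeing the data, gave the same 4 counts. In gene totals the block by the titles' numbers lost Atp5b with exon 5 (edgeR adjusted p = 0.108) and Mrps6 without exon 5 (0.0748). In the CDS it lost Atp5b (0.0549) and Mrps30 (0.08). Input depth limits all of this: a gene at 0 in input 3 could still lie at 21.1 CPM.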
